A study of Mus musculus with 12 samples.

Results

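The genes of cholesterol synthesis and of its control by the sterol regulatory element-binding proteins (SREBPs) were followed in the mouse hippocampus over 4 circadian times. The set holds 26 genes, taken by name from the array's gene column: 18 enzymes of the pathway, 5 genes of the SREBP machinery, the sterol carrier gene Stard4 and the fatty acid desaturase genes Fads1 and Fads2. All 26 had a probe, out of 24119 genes tested, and all 26 lay well above background on each of the 12 arrays; Msmo1 stands on the array under its older name Sc4mol. Hippocampal RNA of 12 adult male wild-type mice in constant darkness was measured on 1-colour Agilent arrays, 1 array per mouse, in a study that looked for genes under circadian regulation. Every group had 3 mice: CT0 (start of the subjective day, 36 h in darkness), CT6 (42 h), CT12 (start of the subjective night, 48 h) and CT18 (30 h). Because each circadian time was reached after a different number of hours in darkness, the 2 cannot be told apart. Each level is the log2 of the processed signal, set relative to the 75th percentile of its array, so a difference of 1 is a doubling, and levels are compared only within a gene.

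Cells build cholesterol from acetyl-CoA by way of mevalonate, farnesyl diphosphate, squalene and lanosterol. When membrane sterol falls, the escort protein SCAP carries SREBP precursors from the endoplasmic reticulum to the Golgi, where they are cleaved into transcription factors that act on sterol regulatory elements (SREs), often beside a CCAAT box bound by NF-Y. INSIG proteins hold the complex back when sterol is plentiful, and INSIG1 is itself a target, which makes its mRNA a common readout of SREBP activity. The brain makes nearly all of its own cholesterol, since plasma lipoproteins do not cross the blood-brain barrier, and oligodendrocytes and astrocytes supply much of it. Clock proteins bind E-boxes with the core CACGTG, and in liver several of these genes follow a daily rhythm.

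Promoter windows from RefSeq (build GRCm38.p6; 250 bases before to 50 after an annotated start) were found for 21 of the 26 genes; Fdps, Fdft1, Sqle, Stard4 and Fads1 had none. The 3 stretches shown in full belong to the gene with an SRE match and to Insig1 and Mvk, whose CT18 minus CT6 differences were the largest of the set. Stard4, which led CT12 minus CT0, had no window. Each covers the 250 bases before the start, written 5′ to 3′ on the gene's strand. Capitals mark the SRE, the E-box and each CCAAT box (CCAAT, or ATTGG where it lies on the other strand). Hmgcs1 lies at chr13:119690101-119690350 (plus strand), Mvk at chr5:114444019-114444268 (plus) and Insig1 at chr5:28071162-28071411 (plus).
Hmgcs1: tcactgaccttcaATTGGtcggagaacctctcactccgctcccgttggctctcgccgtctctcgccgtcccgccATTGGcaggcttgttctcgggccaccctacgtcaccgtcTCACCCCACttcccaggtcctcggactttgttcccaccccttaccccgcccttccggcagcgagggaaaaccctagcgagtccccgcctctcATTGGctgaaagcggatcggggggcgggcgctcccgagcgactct
Mvk: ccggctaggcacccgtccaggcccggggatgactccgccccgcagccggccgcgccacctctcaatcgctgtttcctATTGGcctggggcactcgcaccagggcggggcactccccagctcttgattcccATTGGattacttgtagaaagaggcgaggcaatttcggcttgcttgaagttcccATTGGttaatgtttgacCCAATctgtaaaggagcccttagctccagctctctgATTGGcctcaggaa
Insig1: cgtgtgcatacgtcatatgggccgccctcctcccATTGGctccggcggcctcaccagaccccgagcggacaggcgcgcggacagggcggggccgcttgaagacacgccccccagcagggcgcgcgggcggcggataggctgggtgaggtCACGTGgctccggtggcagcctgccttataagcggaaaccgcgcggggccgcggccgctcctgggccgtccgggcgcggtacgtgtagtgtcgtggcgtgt
Stretches of 36 bases around the E-box, in capitals, are shown for 3 of the enzyme genes that hold one: Hsd17b7 at chr1:169969328-169969363 (minus), Sc5d at chr9:42264378-42264413 (minus) and Dhcr7 at chr7:143823220-143823255 (plus; 1 of its 3 annotated starts).
Hsd17b7: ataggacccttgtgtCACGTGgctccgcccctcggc
Sc5d: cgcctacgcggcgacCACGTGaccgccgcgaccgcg
Dhcr7: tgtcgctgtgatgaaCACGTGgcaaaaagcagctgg

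Each motif was searched on both strands and compared with all 32851 windows of 300 bases. The E-box CACGTG occurred in 5 of the 21 genes (23.8%; Hsd17b7, Sc5d, Dhcr7, Insig1 and Scap) and in 7.15% of all windows. In Insig1 its first base lay at -101 relative to the start. CCAAT occurred in 18 genes (85.7%) against 37.4% of windows, with 5 copies before the start in Mvk, and the GC box GGGCGG in 20 (95.2%) against 35.7%. The SRE form TCACNCCAC occurred in Hmgcs1 alone (4.76%, against 1.24%), with its first base at -137. The D-box TTATGNAA occurred in 0 of 21, against 3.38% of windows. No 2 marked motifs overlapped in the printed stretches. A gene with several annotated starts had several windows, so its chance of holding a motif is higher, and these matches are letters in a window, not measured binding.

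Of the 59305 spots that carry gene probes, 77.1% were well above background on CT0 mouse 3 and 59.3% to 67.1% on the other arrays, with 0 saturated. A slide held 1 array of every time, there were 3 slides, and each time kept its position from slide to slide, so array position and time cannot be told apart. CT12 mouse 11 stood apart: its correlation across genes with the other libraries was 0.945 to 0.965, against at least 0.984 among the other 11. The median of 12 hippocampal and forebrain neuron markers there was -4.11 (log2 deviation from each gene's mean over 12 libraries; -0.13 to 0.59 elsewhere). All 12 of these markers of the labelled tissue were lowest in that library. The median of the 9 measured cerebellum markers, of 12 listed, was 4.62 there (-0.83 to -0.26 elsewhere). Oligodendrocyte markers were at 0.71 (-0.32 to 0.24 elsewhere) and astrocyte markers at 0.35 (-0.14 to 0.11). The main results that draw on CT12 are therefore given with and without that mouse. Leaving it out leaves CT12 with no array on slide 2, so the fit without it was also run with slide as a block, a setting added after the data were seen. In tissue RNA, fewer cells of a type and less RNA per cell cannot be told apart.

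The genes differed little among the 4 times, and none passed a test after adjustment over all genes, although several members separated CT6 from CT18. By limma's moderated F test with Benjamini-Hochberg adjustment over all genes, 0 of 26 passed an adjusted p of 0.05, where 0.166% of all genes passed. The test for a 24-hour cosine and sine also passed 0 of 26 (0.0705% of all genes), as did CT12 minus CT0 (0.058%) and CT18 minus CT6 (0.133%). Without CT12 mouse 11 the counts were again 0 in these 4 tests, against 0.245%, 0.282%, 0.029% and 1.24% of all genes, and with slide as a block they were 0 against 0.0663%, 0.0539%, 0.0498% and 0.166%. Without that mouse and with slide as a block they were 0 against 0.269%, 0.502%, 0.0373% and 2.75%. With backgrounds this low, 0 of 26 is also what an average set would give. At an unadjusted p under 0.05 limma gave 1 member in the F test (3.85%; 10.6% of all genes) and 3 in the rhythm test (11.5%; 9.72%). The contrasts gave 1 for CT12 minus CT0 (3.85%; 11.7%) and 6 for CT18 minus CT6 (23.1%; 8.3%). Those 6 were Mvk, Lss, Nsdhl, Dhcr7 and Insig1, lower at CT18, and Insig2, higher there.

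These unadjusted counts depended on how slide and CT12 mouse 11 were treated, and on other settings. With slide as a block limma gave 6 members in the F test (23.1%; 15.3% of all genes) and 8 in the rhythm test (30.8%; 14.4%). It gave 5 for CT12 minus CT0 (19.2%; 16.8%), all higher at CT12 (Mvk, Pmvk, Mvd, Insig1 and Stard4), and 6 for CT18 minus CT6 (23.1%; 11.6%). Without mouse 11 and without the block the counts were 4 (15.4%; 12.3%), 5 (19.2%; 12.3%), 1 (3.85%; 8.38%) and 7 (26.9%; 13.8%). Without mouse 11 and with the block they were 10 (38.5%; 18.4%), 12 (46.2%; 18.3%), 5 (19.2%; 13.4%) and 13 (50%; 19.5%). The smallest adjusted p of a member in any setting came from that last fit, 0.0525 for Insig1 in CT18 minus CT6, followed by 0.068 for Mvk. The unadjusted CT18 minus CT6 count fell to 0 with median centring (919 of 24119 genes). It was 1 with no filter on dim probes (1864 of 36105) or without CT18 mouse 16 (1239 of 24119). Leaving out CT18 mouse 14 or any CT6 mouse gave 2 (1305 to 1706 genes). The count was 7 with quantile normalization, the deposited table or without CT12 mouse 12, and 3 to 6 in the remaining settings.

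**Figure D1:**
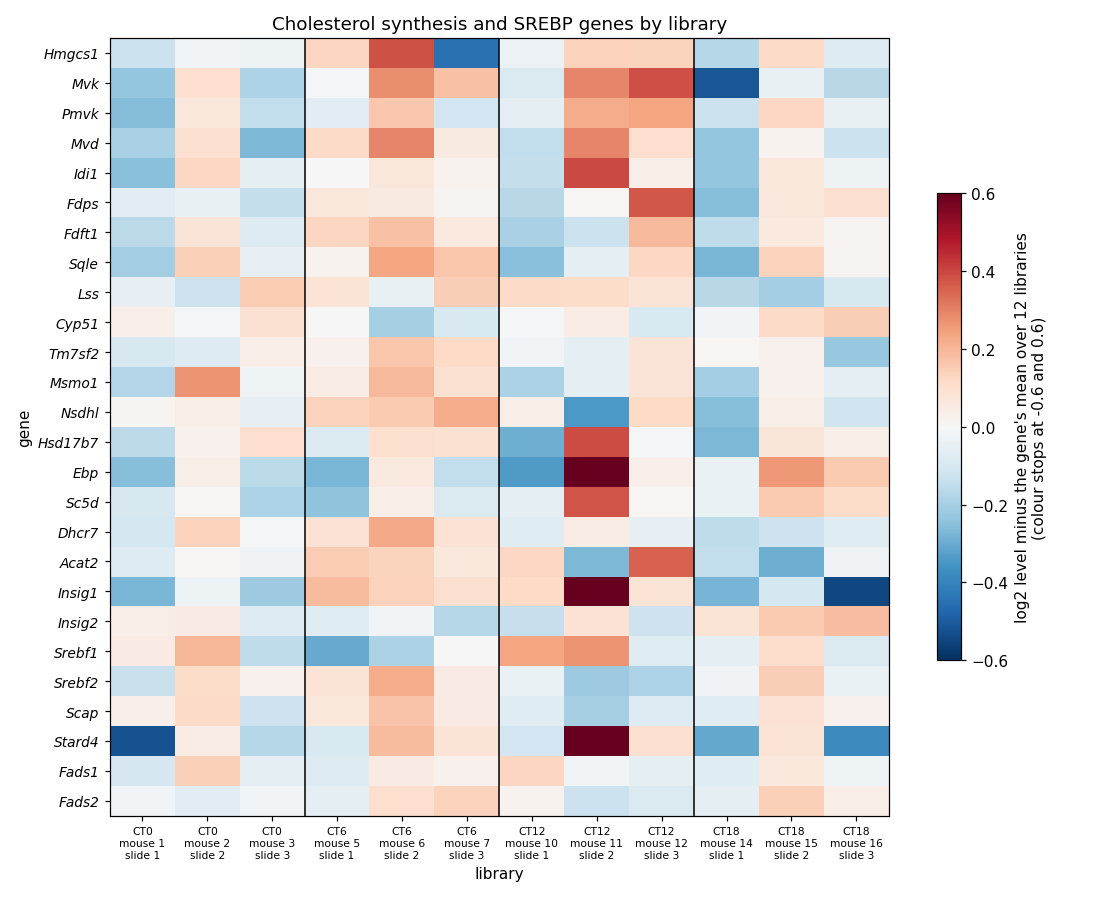
Each row is a gene and each column a library, labelled with its circadian time, mouse and slide; colour gives the log2 level minus the gene's mean over the 12 libraries. Most cells are pale; the CT18 mouse 14 column is mainly blue (24 of 26 genes below their mean) and the CT6 mouse 6 column mainly red (22 above).

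The enzymes that lead from acetyl-CoA to farnesyl diphosphate varied little. Acat2, the cytosolic thiolase that joins acetyl-CoA units, stood at -0.28, -0.20 and -0.22 at CT0 and at -0.05, -0.07 and -0.14 at CT6. It stood at -0.08, -0.47 (mouse 11) and 0.15 at CT12 and at -0.35, -0.49 and -0.22 at CT18. All 3 CT6 mice were therefore above all 3 CT0 and all 3 CT18 mice, and CT18 minus CT6 was -0.27 ± 0.14 (SE, adjusted p = 0.721). The order against CT0 was noticed after the values were seen, and its share over all genes was not computed. Hmgcs1, the HMG-CoA synthase, had means of 5.16 ± 0.06, 5.24 ± 0.43, 5.30 ± 0.10 and 5.18 ± 0.14 (SD, n = 3) from CT0 to CT18. Both its highest and its lowest library were CT6 mice, at 5.60 and 4.77, so the spread within that time exceeded the range of the 4 means, 0.14.

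Mvk, the mevalonate kinase, varied most among the enzymes of this arm. Its levels were 3.03, 3.37 and 3.08 at CT0 and 3.26, 3.55 and 3.44 at CT6. They were 3.18, 3.56 and 3.65 at CT12 and 2.75, 3.23 and 3.10 at CT18. All 3 CT6 mice lay above all 3 CT18 mice, while CT12 overlapped CT0. CT18 minus CT6 was -0.39 ± 0.17 (1.31-fold lower; adjusted p = 0.563, and 0.153 with slide as a block), and CT12 minus CT0 was 0.30 ± 0.17 (1.24-fold; adjusted p = 0.474). Without mouse 11 the latter was 0.26, and 0.35 when slide was also a block. Within slides 1, 2 and 3 CT18 minus CT6 was -0.50, -0.32 and -0.35. A second Mvk probe gave -0.46 for the same difference and 0.23 for CT12 minus CT0. The probe used lies at chr5:114910540-114910599 of mm9 (plus strand).

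Mvd, the decarboxylase that makes isopentenyl diphosphate, stood at 1.19, 1.36 and 1.13 at CT6 and at 0.84, 1.09 and 0.94 at CT18. The groups did not overlap, and the difference was -0.27 ± 0.14 (adjusted p = 0.715). CT12 minus CT0 was 0.20 ± 0.14 for Mvd (adjusted p = 0.554) and 0.25 ± 0.13 for Pmvk, the phosphomevalonate kinase (adjusted p = 0.462). Without mouse 11 these were 0.10 and 0.21, and 0.18 and 0.29 when slide was also a block. In neither of these genes did the CT12 and CT0 mice separate. Idi1, the isomerase, and Fdps, the farnesyl diphosphate synthase, had means between 2.24 and 2.40 and between 3.61 and 3.77. Their highest libraries were both CT12 mice, mouse 11 for Idi1 (2.70) and mouse 12 for Fdps (4.07).

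Among the enzymes from squalene to cholesterol, several CT18 levels lay below CT6 by small amounts, and Cyp51, Ebp and Sc5d had differences above 0. Dhcr7, the reductase that makes cholesterol in the last step, had the smallest adjusted p of the set in CT18 minus CT6. It stood at -0.14, 0.10 and -0.04 at CT0, at 0.05, 0.19 and 0.05 at CT6, at -0.11, 0.01 and -0.09 at CT12 and at -0.19, -0.16 and -0.11 at CT18. The lowest CT6 mouse was above the highest CT18 mouse, and the difference of -0.25 ± 0.09 (1.19-fold lower) had an adjusted p of 0.434. Lss, the lanosterol synthase, stood at -1.05, -1.18 and -0.99 at CT6 and at -1.30, -1.34 and -1.23 at CT18. These did not overlap either (-0.22 ± 0.10; adjusted p = 0.587). At CT12 Lss was nearly the same in the 3 mice, at -1.02, -1.02 and -1.05.

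Nsdhl, a sterol dehydrogenase that helps remove methyl groups from lanosterol, stood at -0.03, -0.01 and 0.05 at CT6 and at -0.42, -0.13 and -0.29 at CT18. The difference was -0.29 ± 0.13 (1.22-fold lower, adjusted p = 0.596), and a second, dimmer probe gave -0.10. At CT12 the probe used gave -0.13, -0.51 (mouse 11) and -0.05. Without mouse 11 both CT12 mice lay above all 3 CT0 mice. The squalene synthase Fdft1 and the methylsterol oxidase Msmo1 also did not overlap between CT18 and CT6, with differences of -0.15 ± 0.12 and -0.19 ± 0.13. A second, dimmer Fdft1 probe gave -0.02 for that difference. For CT12 minus CT0 it gave -0.53, where the probe used gave 0.01. Sqle, the squalene epoxidase and a rate-limiting step, gave -0.18 ± 0.15, and the sterol reductase gene Tm7sf2 gave -0.17 ± 0.10; both overlapped. Hsd17b7, a ketosteroid reductase, had means from -0.18 to -0.09.

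Cyp51, the lanosterol demethylase, was higher at CT18 than at CT6 by 0.18 ± 0.09 (adjusted p = 0.679), with levels of -1.22, -1.42 and -1.31 at CT6 and -1.24, -1.11 and -1.07 at CT18, which overlap. Ebp, the sterol isomerase, and Sc5d, the lathosterol desaturase, were above 0 in this difference on all 3 slides, at 0.25 ± 0.22 and 0.17 ± 0.13. At CT12 Ebp was 3.31 in mouse 10, 4.33 in mouse 11 and 3.69 in mouse 12. CT12 minus CT0 was 0.25 for Ebp with mouse 11 and -0.03 without it (adjusted p = 0.646 and 0.98), and 0.05 without it when slide was a block. Slide 2, which carried mouse 11, was the high slide for Ebp, 0.48 above slide 1 with mouse 11 itself counted. At CT0, CT6 and CT18 Ebp stood at 3.69, 3.71 and 3.92 on slide 2. At these times it stood at 3.40, 3.38 and 3.62 on slide 1 and at 3.49, 3.51 and 3.81 on slide 3.

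Insig1, the sterol-sensing anchor of the SREBP complex, had the largest range of time means in the set, 0.66. Its levels were -0.78, -0.54 and -0.73 at CT0 and -0.32, -0.37 and -0.42 at CT6. They were -0.39, 0.32 (mouse 11) and -0.43 at CT12 and -0.79, -0.62 and -1.06 at CT18. All 6 mice of CT6 and CT12 were above all 6 mice of CT0 and CT18. This order was noticed after the values were seen, was not tested, and its share over all genes was not computed. The means were -0.69 ± 0.13, -0.37 ± 0.05, -0.17 ± 0.42 (-0.41 without mouse 11) and -0.82 ± 0.22 (SD). The F test gave an unadjusted p of 0.0259 and an adjusted p of 0.41 (limma; 0.238 without mouse 11, 0.205 with slide as a block). CT18 minus CT6 was -0.45 ± 0.19 (1.37-fold lower; 95% interval -0.88 to -0.02) with an adjusted p of 0.563. Without mouse 11 that p was 0.104, and 0.0525 when slide was also a block. CT12 minus CT0 was 0.52 ± 0.19 (1.43-fold; adjusted p = 0.396) and 0.28 without mouse 11 (adjusted p = 0.616; 0.33 and adjusted p = 0.292 when slide was also a block). Within slides 1, 2 and 3 CT18 minus CT6 was -0.47, -0.25 and -0.64, and CT12 minus CT0 was 0.39, 0.87 and 0.30, where mouse 11 is on slide 2. The fitted 24-hour peak lay at 9.27 h (rhythm test, adjusted p = 0.391; 0.142 without mouse 11). The probe lies at chr5:28404246-28404305 of mm9 (plus strand).

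Insig2, the paralog of Insig1, lay the other way between CT6 and CT18. It stood at 2.57, 2.57 and 2.45 at CT0, 2.45, 2.51 and 2.35 at CT6, 2.38, 2.61 (mouse 11) and 2.40 at CT12, and 2.61, 2.68 and 2.71 at CT18. All 3 CT18 mice were above all 3 CT6 mice, by 0.23 ± 0.09 (1.17-fold; adjusted p = 0.525), and a second probe gave 0.21. Whether the differences of Insig1 and Insig2 differ from each other was not tested.

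The transcription factor genes and the escort moved less than Insig1. Srebf2, whose product drives mainly the cholesterol genes, had means of -0.09 ± 0.12, 0.03 ± 0.09, -0.24 ± 0.10 (-0.20 without mouse 11) and -0.06 ± 0.10 from CT0 to CT18. Its 3 CT12 mice, at -0.13, -0.31 (mouse 11) and -0.28, lay below its 3 CT6 mice, at -0.01, 0.13 and -0.04. Scap had means of 4.61 ± 0.12, 4.70 ± 0.07, 4.48 ± 0.07 (4.53 without mouse 11) and 4.61 ± 0.08, with all CT12 mice below all CT6 mice (4.53, 4.40 and 4.52 against 4.67, 4.77 and 4.65). These 2 orders were noticed after the values were seen, and CT12 minus CT6 was not among the contrasts tested. The share of all genes with such an order was not computed, so neither can be set against a background. Mouse 11 was the lowest library for both genes, as for 30.4% of all genes. The lowest of the 4 means fell at CT12 for 36.4% of all genes. Srebf1, whose product drives mainly fatty acid genes, ranged from -1.62 ± 0.16 at CT6 to -1.32 ± 0.19 at CT12, with overlap among all times.

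Stard4, a cytosolic sterol carrier and SREBP target, had the largest CT12 minus CT0 difference of the set, 0.57 ± 0.29 (1.49-fold; adjusted p = 0.451). Its levels were 0.14, 0.71 and 0.49 at CT0, 0.57, 0.85 and 0.74 at CT6, 0.55, 1.76 (mouse 11) and 0.76 at CT12, and 0.36, 0.74 and 0.28 at CT18. Only mouse 11 lay outside the range of the other times, and without it the difference was 0.21, or 0.32 when slide was also a block. A second, much dimmer Stard4 probe (mean level -4.20, against 0.66) gave 0.03 for CT12 minus CT0. The mean of the 2 probes gave 0.30. The desaturase genes were flat: the 4 means of Fads1 spanned 0.03 (2.78 to 2.81) and those of Fads2 0.12 (0.73 to 0.86).

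**Figure D2:**
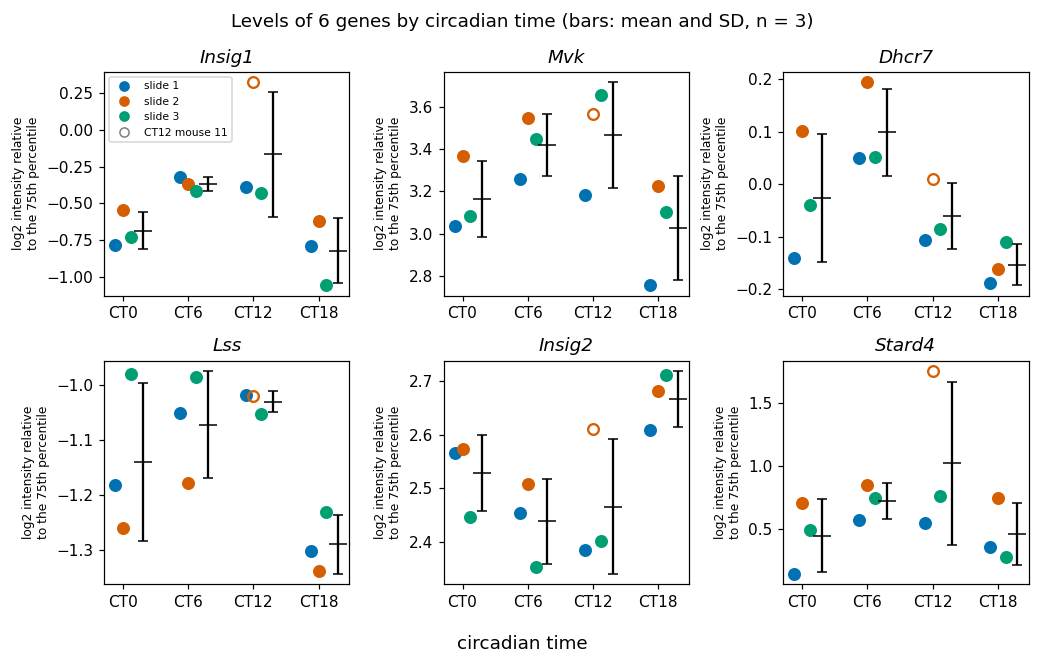
Log2 intensity (scaled to the 75th percentile of the array) in each mouse for 6 genes against circadian time; point colour gives the slide, the open circle is CT12 mouse 11, and bars give the mean and SD of 3 mice. Each panel has its own axis. CT6 lies above CT18 without overlap for Insig1, Mvk, Dhcr7 and Lss and below it for Insig2, and the CT12 means of Insig1 and Stard4 are drawn up by mouse 11.

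As a set, the genes had a median CT18 minus CT6 difference of -0.09, against -0.02 over all genes, with 21 of 26 below 0 (53.8% of all genes). In 9 members (34.6%; 11.6% of all genes) the 3 CT18 values lay below the 3 CT6 values: Mvk, Mvd, Fdft1, Lss, Msmo1, Nsdhl, Dhcr7, Acat2 and Insig1. Insig2 was the single member (3.85%; 11.2%) with the opposite order. The count of 9 depended on the scaling. It was 11 (11.3% of all genes) with quantile normalization, 8 (10.1%) with normexp, and 1 (Lss; 3.74%) when arrays were centred on their median. Median centring put 13 of 26 below 0 and moved the all-gene median to 0.08. It changes every gene's difference by the same amount, so the gap between the members' median and that of all genes, -0.08, could not move. That gap was -0.11 with quantile normalization and -0.05 with normexp. Leaving out 1 library gave -0.04 (without CT18 mouse 14) to -0.15 (without CT18 mouse 15). The count below 0 was 16 of 26 without CT18 mouse 14, 17 without CT6 mouse 6 and 19 to 21 without any other library. With all libraries 19 of 26 lay below the median of all genes. That count was 14 (without CT18 mouse 14) to 21 with 1 library left out. Within slides 1, 2 and 3 the members' medians were -0.23, -0.09 and -0.09. In 15 members (25.2% of all genes) the difference was below 0 on all 3 slides, and in Ebp, Sc5d and Insig2 (21.9%) it was above 0 on all 3.

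For CT12 minus CT0 the median was 0.07 (0.05 without mouse 11; -0.02 over all genes), with 17 of 26 above 0 with or without that mouse. Median centring gave 26 of 26 above 0 and moved the median of all genes to 0.19. Insig1 was the only member (3.85%; 5.17% of all genes) whose 3 CT12 mice lay above the 3 CT0 mice, and 0 lay wholly below (7.77% of all genes). The count above was 2 with quantile normalization (6.72% of all genes) and with median centring (5.18%). It was 3 with normexp (5.14%) and with the deposited table (6.91%). Without mouse 11, Nsdhl, Acat2 and Insig1 (11.5%; 8.38%) lay above and Cyp51 and Insig2 (7.69%; 11.6%) below. The slide medians were 0.05, 0.05 and 0.13. In 10 of 26 members (15.7% of all genes) CT12 lay above CT0 on all 3 slides, and in 0 (19.5%) it lay below on all 3. The 10 were Hmgcs1, Mvk, Pmvk, Mvd, Idi1, Tm7sf2, Sc5d, Insig1, Srebf1 and Stard4, with mouse 11 as the CT12 array of slide 2. Without mouse 11 and with slide as a block the members' median was 0.09 and 19 of 26 were above 0. The highest of the 4 means fell at CT6 for 12 genes, CT12 for 11, CT18 for 3 and CT0 for 0, against 24.1%, 31.3%, 24.9% and 19.7% of all genes. Without mouse 11 the counts were 14, 8, 4 and 0.

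The intervals show which sizes of difference these arrays leave out. For CT12 minus CT0 the 95% interval stayed within 1.5-fold either way for 22 of 26 genes; those of Mvk, Ebp, Insig1 and Stard4 reached past it. For CT18 minus CT6 it did so for 21, and those of Mvk, Ebp, Acat2, Insig1 and Stard4 reached past it. The half-width had a median of 0.29 and ran from 0.20 to 0.64. Without mouse 11 the counts within 1.5-fold were 24 and 23. They were 24 and 22 with the slide block. For most of the set, differences beyond 1.5-fold between these pairs of times were therefore outside the intervals.

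**Figure D3:**
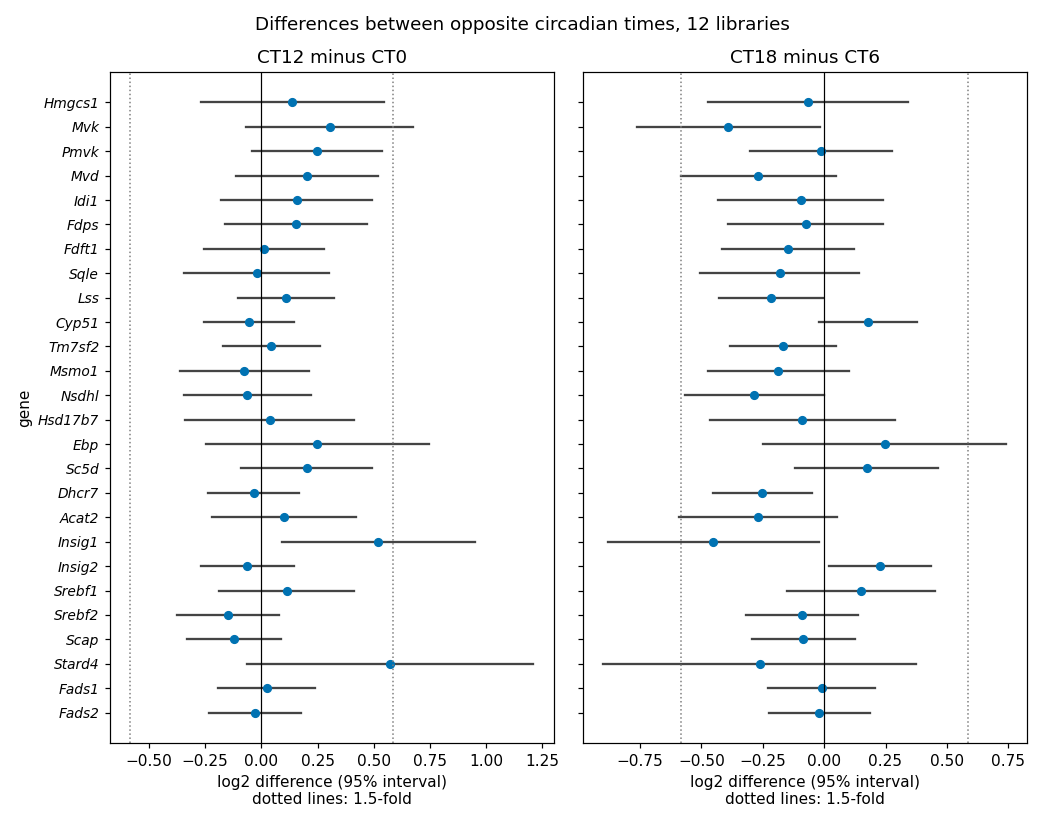
Log2 differences (points) with 95% intervals (lines) from the fit over 12 libraries, for CT12 minus CT0 on the left and CT18 minus CT6 on the right, 1 gene per row; dotted lines mark 1.5-fold. Most intervals cross 0, most points on the right lie below it, and the widest intervals are those of Stard4.

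Slides differed as well as times. The range of the 3 slide means exceeded that of the 4 time means for 12 of 26 genes and was smaller for 14 (median ranges 0.19 and 0.22). The share of all genes in this comparison was not computed. Slide 1 had the lowest of the 3 slide means for 16 of 26 genes (40.4% of all genes) and the highest for 0 (26.1%), and slide 2 had the highest for 19 (38.8%). Slide 2 includes CT12 mouse 11, the highest library for 7 of the 26 genes and the lowest for 4. The slide means were not computed without it. The members' median deviation from each gene's own mean was -0.08 ± 0.08 on slide 1, 0.08 ± 0.04 on slide 2 and 0.01 ± 0.07 on slide 3 (SD, n = 4 arrays). By time it was -0.04 ± 0.08 at CT0, 0.08 ± 0.06 at CT6, 0.03 ± 0.08 at CT12 and -0.04 ± 0.11 at CT18 (n = 3). CT18 mouse 14 and CT0 mouse 1, both on slide 1, were lowest at -0.15 and -0.12, with 24 and 21 genes below their mean, and CT6 mouse 6 on slide 2 was highest at 0.15. An F test of slide with time in the model, chosen after the data were seen, passed 0 of 26 (6.57% of all genes). At an unadjusted p under 0.05 it gave 10 members (38.5%; 24.7% of all genes): Mvk, Pmvk, Mvd, Idi1, Sqle, Msmo1, Hsd17b7, Ebp, Sc5d and Stard4. The smallest adjusted p was that of Mvk, 0.0652. Without CT12 mouse 11 the counts were 0 (5.29% of all genes) and 9 (34.6%; 28.8%), and Sc5d was no longer among them. With all 12 libraries every slide carried each time once, so slide enters the spread and not the differences between times. Without mouse 11 slide also enters the differences that involve CT12 unless it is a block. CT18 and CT6 still had an array on every slide, so slide does not enter CT18 minus CT6.

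**Figure D4:**
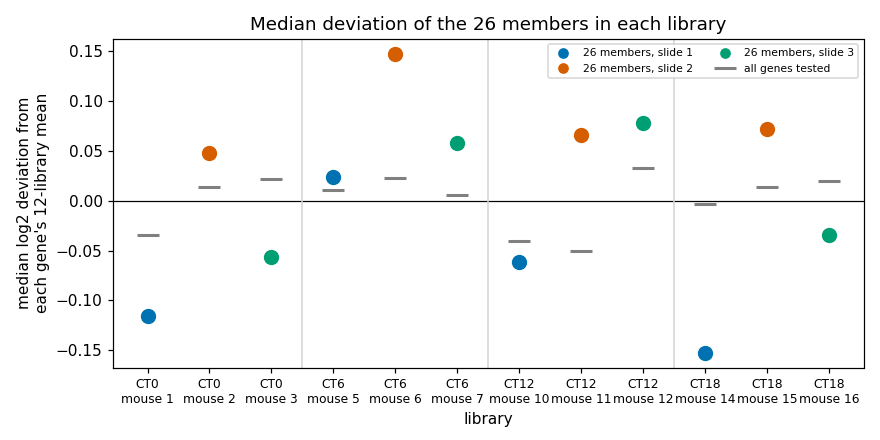
For each library, the coloured point is the median over the 26 genes of the log2 deviation from the gene's own 12-library mean, coloured by slide, and the grey dash is the same median over all genes tested. At each of the 4 times the slide 1 point is the lowest, and the grey dashes stay between -0.05 and 0.03.

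In CT12 mouse 11 the set split. Idi1, Hsd17b7, Ebp, Sc5d, Insig1, Srebf1 and Stard4 were above all other 11 libraries, and Nsdhl, Srebf2, Scap and Fads2 were below all of them. These are 7 and 4 of 26, while 25.4% of all genes were highest and 30.4% lowest in that library. Stard4 was 1.19 above the median of the other 11, Insig1 0.87 and Ebp 0.71. The oligodendrocyte list was higher in each CT12 mouse than in any other library, at 0.24, 0.71 and 0.19, against -0.05, -0.32 and -0.29 at CT6 and -0.05, 0.01 and -0.26 at CT18. Its part in the members' levels was not tested. The choroid plexus list was high in CT0 mouse 1, CT12 mouse 10, CT6 mouse 7, CT18 mouse 14 and CT12 mouse 11 (1.86 to 3.65). It was between -2.16 and -1.54 in the other 7, so it was high in at least 1 mouse of every time. CT0 mouse 1, CT12 mouse 10 and CT18 mouse 14 were on slide 1 (members' medians -0.12, -0.06 and -0.15). CT6 mouse 5, low in this list, was the other slide 1 array (0.02). CT12 mouse 11 was the only high array of slide 2 (0.07) and CT6 mouse 7 that of slide 3 (0.06). Slide 1 and choroid plexus tissue therefore largely coincided, and the part of this list in the members' levels was not tested either.

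Related genes outside the set gave no calls in any of the 4 tests, with or without CT12 mouse 11 or with slide as a block. Among 7 other sterol synthesis enzymes, 0 passed in either direction, and the medians were 0.15 for CT12 minus CT0 and 0.04 for CT18 minus CT6. Cyb5b, Lbr and Ggps1 were among those with the smallest F test p. Lbr, a sterol reductase of the nuclear envelope, gave 0.36 ± 0.14 for CT12 minus CT0 (adjusted p = 0.418; 0.17 without mouse 11).

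Of 15 genes for SREBP processing, sterol sensing and lipoprotein receptors, 0 passed, and Mylip, Syvn1 and Tmem97 were among the leading genes. Mylip, a sterol-induced ubiquitin ligase, was 0.87, 0.49 (mouse 11) and 0.86 at CT12 against 1.16, 1.22 and 1.13 at CT0. All 3 CT12 mice lay below every mouse of the other times, and CT12 minus CT0 was -0.43 ± 0.11 (adjusted p = 0.31, and a difference of -0.31 without mouse 11). That order was noticed after the values were seen, and its share over all genes was not computed. Tmem97, a sterol-regulated membrane protein, gave 0.34 ± 0.17 (0.31 without mouse 11) and -0.25 ± 0.17 for CT12 minus CT0 and CT18 minus CT6.

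Of 14 genes for cholesterol transport, storage and turnover, 0 passed; Stard3, Cyp27a1, Cyp7b1 and Lipa led. Stard3, for a cholesterol-binding protein of late endosomes, was 2.83, 2.74 and 2.84 at CT6 and 3.03, 3.16 and 3.14 at CT18. These did not overlap, and the difference was 0.31 ± 0.08 (adjusted p = 0.218; 0.0862 without mouse 11). Lipa, the lysosomal lipase that frees cholesterol from its esters, gave 0.32 ± 0.10 (adjusted p = 0.343). Cyp7b1, an oxysterol hydroxylase, was 1.60, 1.67 and 1.49 at CT6 and 1.86, 1.96 and 2.03 at CT18 (0.36 ± 0.23; adjusted p = 0.833, and 0.082 without mouse 11). Of 13 fatty acid synthesis genes 0 passed, with Scd1, Tecr, Elovl6 and Elovl5 leading. Elovl6, a fatty acid elongase, gave 0.29 ± 0.12 for CT18 minus CT6 (adjusted p = 0.572), and Scd1, the stearoyl-CoA desaturase, 0.46 ± 0.23 for CT12 minus CT0 (adjusted p = 0.445; 0.19 without mouse 11).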

How the data were processed

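The 12 libraries were grouped by the circadian time in their labels; the labels say that 3 mice were used per time. Agilent Feature Extraction 10.7.3.1 read the spots, per the file headers. The deposited processed signal is a background-subtracted intensity, not scaled between arrays, with probe coordinates on mm9. The other deposited columns used were spot flags (other) and the intensity of the local background, which was 100 on CT0 mouse 1 and 25 to 37 elsewhere. The quality result in the file headers was "evaluate" for CT0 mouse 1 and "in range" for every other array. Without CT0 mouse 1 the members' median CT12 minus CT0 was 0.04, with 14 of 26 above 0. The deposited value table holds log2 values by a step not given in the sources used here (column medians 5.369 to 5.370) and served as an alternative.

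Log2 processed signals were scaled by subtracting the 75th percentile of the array's gene probes, flagged outliers were left out and spots averaged. Of 55681 probes, 33965 were well above background on all 3 arrays of a time, and the brightest probe stood for its gene (24119 genes). R 4.3.3 with limma 3.58.1 fitted a mean per time. The F test, the 24-hour test and the contrasts were each adjusted over all genes (Benjamini-Hochberg, threshold 0.05), and the procedure was tested on simulated data. The number of arrays limits the precision. All members are named with their levels; in each contrast the 6 members with the largest difference get full statistics, and up to 4 genes of each related list, ranked by the p of the F test, are named. Some genes that this rule names are not reported here. Members and lists were chosen with earlier results of these data known. Alternatives were quantile normalization, median centring, normexp (offset 50), the deposited table, other filters, probe summaries and variance models, slide as a block, leaving out each library, and, added later, slide as a block without CT12 mouse 11.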

Additional observations from a re-analysis of the deposited data

How the results depend on the processing

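In all 22 alternatives, of which slide as a block without CT12 mouse 11 was added after the data were seen, the 4 tests called 0 of 26 members, with a smallest adjusted p of 0.0525 in the added setting. Of 264 repeated member differences 263 kept their direction and their side of the threshold. Many repeats could not change a difference: leaving out a library of another time, slide as a block with all 12 libraries, and trended variances. The differences were also picked as the largest, and none passed the threshold at the start, so the count of 263 says little about robustness. CT12 minus CT0 of Ebp turned to -0.027 without CT12 mouse 11, the lowest of its values without 1 library, which reached 0.48. The Ebp difference was 0.052 without that mouse when slide was also a block. With median centring the members' median was 0.285 for CT12 minus CT0 (0.07 as reported) and 0.000362 for CT18 minus CT6 (-0.09 as reported); all genes moved with it, by the construction of the scaling.

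Counts over all genes moved more. The F test called 40 genes, 16 with slide as a block, 8 with median centring and 2 with no filter on dim probes. The rhythm test called 17, and 6, 3, 11, 6, 5 and 27 with quantile normalization, median centring, normexp, the deposited table, no filter and trended, robust variances. CT12 minus CT0 called 14, and 7, 5, 7 and 1 with quantile normalization, median centring, the deposited table and no filter. CT18 minus CT6 called 32, and 53, 3, 52, 11, 65 and 66 with quantile normalization, median centring, the deposited table, no filter, probes well above background on all 12 arrays and trended, robust variances. Leaving out 1 library gave 0 to 117, 0 to 68, 1 to 78 and 1 to 300 genes in these 4 tests, and the added setting 65, 121, 9 and 663; the cause was not tested. No paired analysis was possible because replicate numbers are not shared between the times; slide served as a block instead. The 95% intervals of the members' differences had a median half-width of 0.29.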
